A study of Mus musculus with 2 samples.

Results

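The 9 genes described here make and load the major histocompatibility complex (MHC) class II molecule: the chain genes H2-Aa, H2-Ab1 and H2-Eb1, the invariant chain gene Cd74, the transactivator gene Ciita, and H2-DMa, H2-DMb1, H2-Oa and H2-Ob, whose products act on peptide loading. They were grouped by function, with earlier results of these data known, and a probe was taken for a gene when its RefSeq accession matched that symbol. All 9 matched, by 11 probes in all, out of 20651 genes matched on the array, and all 9 were well above background on both arrays, as were 12958 genes in all. RNA was labelled with Cy3 and hybridised to 1-colour Agilent arrays, 1 array for each of 2 cultures labelled Th9 (IL-9-producing helper T cells). The first culture came from mice of genotype SIRT1flox/flox-CD4-Cre, in which a Cre recombinase under Cd4 regulatory sequences acts on floxed alleles of Sirt1, a deacetylase gene, and the second from wild-type mice. Both began with naive CD4 T cells that were sorted from spleen and lymph node and stimulated by antibodies to CD3 and CD28 plus human IL-2, then kept with IL-4 and TGFβ1 for 5 days by the sample descriptions, or 5 to 6 by the protocol. The labels do not give the strain, age or number of the mice, nor whether cells of several animals were pooled. The comparison asks how these transcripts differ between the 2 genotype labels.

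Class II molecules are pairs of an alpha and a beta chain that show peptides from endosomes to CD4 T cells. The invariant chain fills their groove during assembly, proteases trim it to a short fragment, and the DM dimer then exchanges that fragment for peptide, while the DO dimer restrains DM. CIITA, a coactivator that does not itself bind DNA, switches on class II genes by joining factors bound at the X and Y boxes of their promoters. B cells, dendritic cells and macrophages are the usual producers of these proteins, and mouse T cells are generally held to make little or none.

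Each genotype had a single array, so the differences carry no replicate check, no test between the genotypes was possible, and no p-value is given. The signal is the scanner's processed intensity. Differences are on the log2 scale after each array was scaled to its own 75th percentile (a signal of 558 on the array labelled knockout and 584 on the wild-type array), as knockout minus wild-type. The error beside a difference is the scanner software's own estimate, 0.20 for every member, and it covers neither animals nor cultures. Nor does it cover disagreement between probes, which for Csf1r, a macrophage gene, gave differences from 0.90 to -0.57. For 376 gene probes with at least 8 usable spots per array, the median SD of the difference among spots of the same probe was 0.059, while each class II probe had 1 spot. Sirt1, the targeted gene, gave a signal of 2920 on the array labelled knockout and 3240 on the wild-type array, a difference of -0.08 ± 0.20 (0.11 with normexp). The position of this probe relative to the floxed exons is not known here, and its signal therefore checks nothing about the label. Il9, which defines the labelled cell type, gave signals of 7.36 on the knockout array and 5.48 on the wild-type array, neither of them well above background.

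Transcripts of the class II set were mostly lower on the array labelled knockout. Of the 9 genes, 8 were lower and 1, H2-DMb1, was level, with a median difference of -0.57, against 0.004 over all 12958 genes. H2-Ab1, counted among the 8, lay inside the scanner error (-0.12 ± 0.20). The number lower was 7 with normexp and with the array median as scale. It was 9 with quantile normalization and in the authors' deposited table. Among all genes, 49.6% were lower by any amount. None of the 9 reached 2-fold in either direction, where 3.63% of all genes were at least 2-fold lower and 3.97% at least 2-fold higher. At 1.5-fold, 4 of the 9 (H2-Ob, H2-Aa, Ciita and Cd74) were lower, against 11.9% of all genes, and 0 were higher, against 11.0%. That count of lower genes rested on the processing. It was 1 (H2-Aa) with normexp, another background correction, against 26.05% of all genes. With each array scaled to its median, which adds 0.17 to every difference, it was 2 (H2-Ob and H2-Aa), against 7.40%. It was 5 with quantile normalization (against 9.84%), with loess (10.3%) and in the authors' deposited table (9.46%). Among genes above the 75th percentile on both arrays, a background chosen after the values were seen, 4.60% were at least 1.5-fold lower, against 4 of the 8 class II genes in that range. These shares describe a single pair of arrays, and the 9 genes were chosen with earlier results of these data known. The split of genes past 2-fold, 514 higher and 471 lower, depended on the processing: it was 786 and 299 with the array median, 601 and 359 with quantile normalization, 631 and 357 in the authors' deposited table, and 195 and 1317 with normexp, which started from other intensities and changed the background correction.

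**Figure D1:**
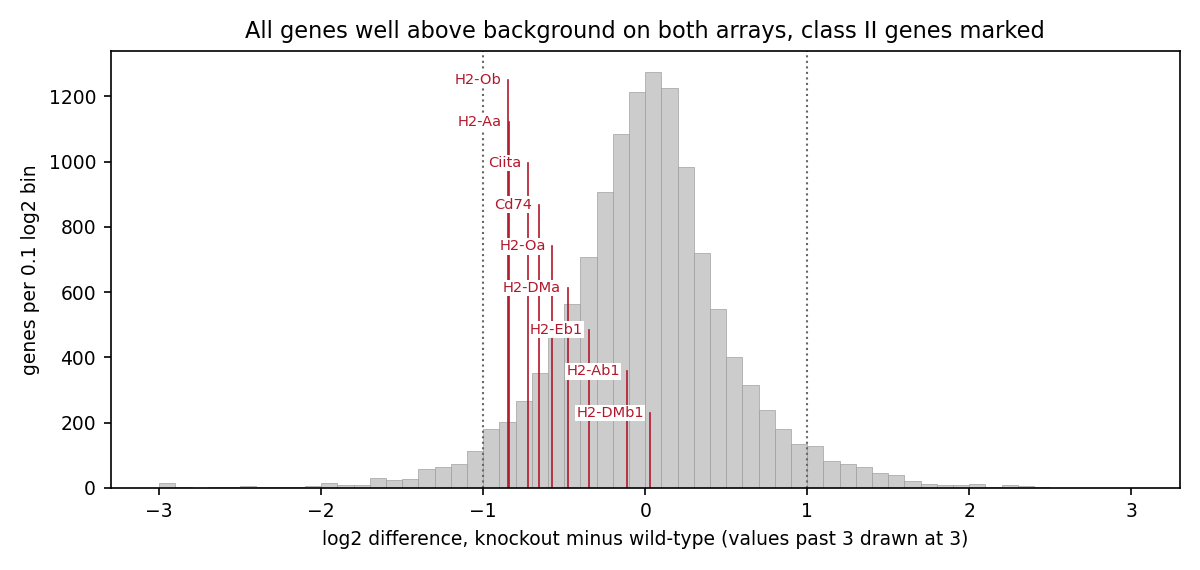
The histogram gives the number of genes (y axis) in each 0.1-wide bin of log2 difference, knockout minus wild-type (x axis), for the 12958 genes well above background on both arrays, and red lines mark the 9 class II genes (their heights carry no value). Dotted lines mark 2-fold, and 8 of the 9 red lines lie below 0, none of them past -1.

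The probes of the chain genes did not differ by the same amount. H2-Aa encodes the alpha chain of I-A, the main mouse class II molecule. Its signal was 1870 on the array labelled knockout and 3510 on the wild-type array, 1.79-fold lower in knockout after scaling (-0.84 ± 0.20). H2-Ab1 encodes the beta chain that pairs with it. One of its probes gave 85200 on the knockout array and 96600 on the wild-type array. The second gave 85100 and 95500. Both probes thus sat slightly lower in knockout, with differences of -0.12 and -0.10, inside the scanner error. The H2-Aa difference minus the H2-Ab1 difference was -0.73 on the log2 scale, with a combined scanner error of 0.29. H2-Aa had 1 probe, and that error leaves out disagreement between probes, so whether the transcripts themselves differed this much was not tested. H2-Eb1, the beta chain gene of I-E, another class II molecule, gave 63600 on the knockout array and 84500 on the wild-type array, a difference of -0.34 ± 0.20. The alpha chain gene of I-E, H2-Ea, was not analysed here, and whether these mice display I-E is not known.

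Among the chain genes, H2-Ab1 changed direction with the processing. With normexp, H2-Ab1 was higher in knockout by 0.15 and the H2-Eb1 difference shrank to -0.02. Scaling to the array median gave H2-Ab1 a difference of 0.059. H2-Aa was lower under each of the 8 alternatives, from -0.87 to -0.60. No gene spot on either array was saturated.

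Cd74 encodes the invariant chain, which escorts new class II molecules to endosomes and blocks their groove. It gave a signal of 11100 on the array labelled knockout and 18300 on the wild-type array, 1.58-fold lower in knockout (-0.66 ± 0.20). Ciita, the gene for the coactivator CIITA, gave 4810 on the knockout array and 8310 on the wild-type array, 1.65-fold lower in knockout (-0.72 ± 0.20). Both were lower by more than the scanner error, which covers neither animals nor cultures. Both kept that direction in all 8 alternatives, which reuse the same arrays. The smallest differences came with normexp, -0.43 for Cd74 and -0.42 for Ciita.

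**Figure D2:**
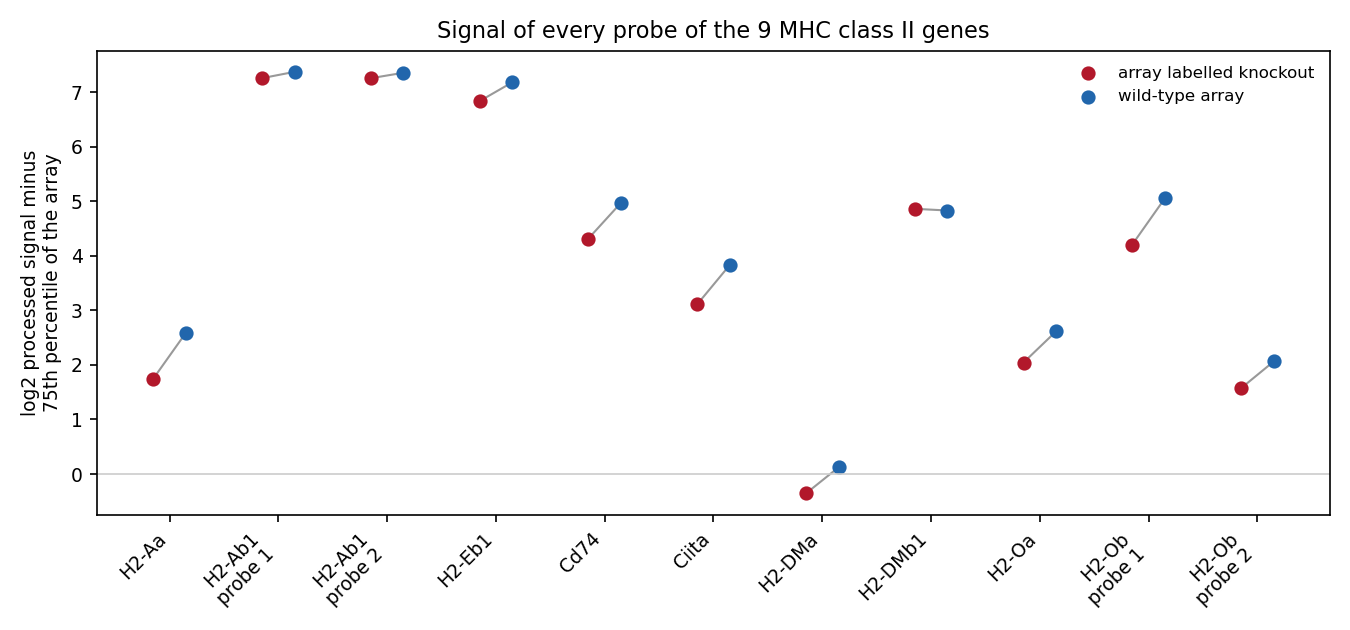
Each pair of points shows 1 probe, the array labelled knockout in red on the left and the wild-type array in blue on the right, on a y axis of scaled signal (log2, 0 at the array's 75th percentile). The red point is lower for 10 of the 11 probes, while the H2-DMb1 pair is level, and heights cannot be compared between probes.

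DM, the peptide editor, is a dimer of H2-DMa and an H2-DMb chain. H2-DMa gave a signal of 436 on the array labelled knockout and 636 on the wild-type array, a difference of -0.48 ± 0.20 (-0.30 with the array median as scale), and it was the member nearest the arrays' 75th percentiles. H2-DMb1 gave 16200 on the knockout array and 16600 on the wild-type array, a difference of 0.03 ± 0.20. It was the sole member not lower in knockout, although the sign of so small a value turned with quantile normalization (-0.037) and in the authors' deposited table (-0.006), and it reached 0.27 with normexp. The H2-DMa difference minus that of its partner was -0.51 ± 0.29, with 1 probe for each gene.

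H2-DMb2, a close copy of H2-DMb1 that also pairs with the DM alpha chain and is not among the 9, differed far more. Its signal was 282 on the knockout array and 934 on the wild-type array, 3.16-fold lower in knockout (-1.66 ± 0.20), and it lay between -1.66 and -1.36 in the 8 alternatives. Its difference minus that of H2-DMb1 was -1.69, with a combined scanner error of 0.29. Probe sequences are not part of the files used here, so whether either probe also binds transcripts of the other copy was not tested.

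DO, the brake on DM, is found chiefly in B cells and some dendritic cells and pairs H2-Oa with H2-Ob. H2-Oa gave a signal of 2300 on the array labelled knockout and 3580 on the wild-type array, 1.49-fold lower in knockout (-0.57 ± 0.20), just short of the 1.5-fold line. The brighter H2-Ob probe gave 10300 on the knockout array and 19400 on the wild-type array, 1.80-fold lower in knockout (-0.85 ± 0.20), the lowest difference of the set (-0.57 with normexp). Its dimmer probe gave 1660 on the knockout array and 2440 on the wild-type array, a difference of -0.49 ± 0.20. The probes of H2-Ob shared a direction, and the brighter minus the dimmer was -0.36 ± 0.29. The H2-Oa difference minus that of H2-Ob was 0.28 ± 0.29, within the scanner error.

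**Figure D3:**
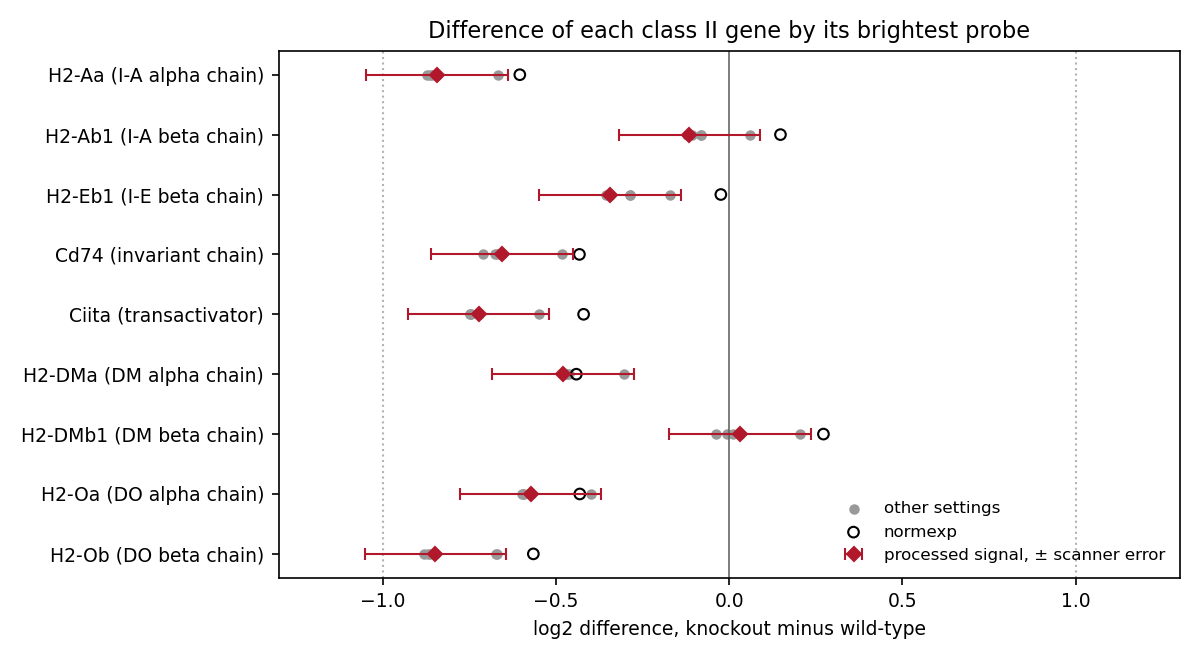
Red diamonds give the log2 difference, knockout minus wild-type (x axis), of each class II gene by its brightest probe, with bars for the scanner error; grey points are other settings and open circles the normexp background correction. All 9 lie within 2-fold (dotted lines), and the open circles of H2-Ab1 and H2-DMb1 lie to the right of 0.

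Because CIITA works through promoter-bound factors, the promoters are shown where the RefSeq table of build GRCm38.p6 held them, for 6 of the 9 genes and for the copies H2-DMb2 and H2-Eb2. Each line gives 65 bases on the strand of the gene, from 45 before the Y box core to 20 from its first base, with matches to the Y box (CTGATTGG, whose core is ATTGG, a subset of it) and to parts of the X box (AACNGATG and TAGCAAC, which can overlap) in capitals. H2-DMb1 and H2-DMb2, whose values lay far apart, can be compared letter by letter. H2-DMa had no core between 130 and 30 bases before its start, and no stretch is printed for it.
H2-Aa (minus strand, chr17:34287852-34287916): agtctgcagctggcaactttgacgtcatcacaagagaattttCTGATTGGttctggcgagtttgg
H2-Eb1 (plus strand, chr17:34305763-34305827): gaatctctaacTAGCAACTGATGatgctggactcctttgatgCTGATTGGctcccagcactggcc
H2-Oa (plus strand, chr17:34092291-34092355): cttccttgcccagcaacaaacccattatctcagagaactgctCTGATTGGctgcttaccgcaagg
H2-Ob (plus strand, chr17:34238803-34238867): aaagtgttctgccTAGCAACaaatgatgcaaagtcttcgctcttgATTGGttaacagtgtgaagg
H2-DMb1 (plus strand, chr17:34153085-34153149): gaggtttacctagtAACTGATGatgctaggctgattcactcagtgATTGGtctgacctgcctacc
H2-DMb2 (plus strand, chr17:34145114-34145178): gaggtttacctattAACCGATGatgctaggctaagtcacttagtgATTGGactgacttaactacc
H2-Eb2 (plus strand, chr17:34325530-34325594): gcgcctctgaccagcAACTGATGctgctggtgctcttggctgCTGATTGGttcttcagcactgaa

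Searched on both strands of windows running from 250 bases before to 50 after each gene start, CTGATTGG occurred in 4.1% of 32851 promoters and in H2-Aa, H2-Eb1 and H2-Oa, 3 of the 6 members in the table, as well as in H2-Eb2. ATTGG alone occurred in 37.4% of promoters and in all 6 members, in H2-DMa only in the window of a second start. AACNGATG occurred in 2.32% of promoters and in H2-Eb1 and H2-DMb1, and TAGCAAC in 3.66% and in H2-Eb1 and H2-Ob. An X box part followed on the same strand by ATTGG, with 28 to 36 bases between their first bases, was present in 24 promoters, or 0.0731%, and these included H2-Eb1, H2-Ob, H2-DMb1, H2-DMb2 and H2-Eb2. That spacing was set after the members' own distances of 30 to 34 bases had been seen. The 5 class II genes holding both boxes at this spacing ranged from a difference of 0.03 for H2-DMb1 to -1.66 for H2-DMb2, whose printed stretches share 56 of 65 letters. A match is a description of the letters and not of a bound site.

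The H2 members lie in the same region of chromosome 17, and the other genes of that region did not share one direction. From H2-Oa to H2-Eb2 the annotation lists 14 protein-coding genes, 7 of them members and 7 others, and all were well above background on both arrays. These neighbours were chosen by position after the members' values were known, and H2-DMb2 and H2-Eb2 among them are class II genes too. Of the 7 others, 3 were higher in knockout (Psmb9 0.28, Psmb8 0.20 and Tap2 0.52, genes of class I peptide supply; 0.59, 0.43 and 0.69 with normexp) and 4 were lower (Brd2, a chromatin reader, -0.44, H2-DMb2 -1.66, Tap1 -0.77 and H2-Eb2 -0.36, or -0.14 with normexp). Tap1 and Tap2 encode the subunits of the transporter that feeds class I molecules, and they differed in opposite directions. Cd74 and Ciita lie on other chromosomes and were lower as well.

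**Figure D4:**
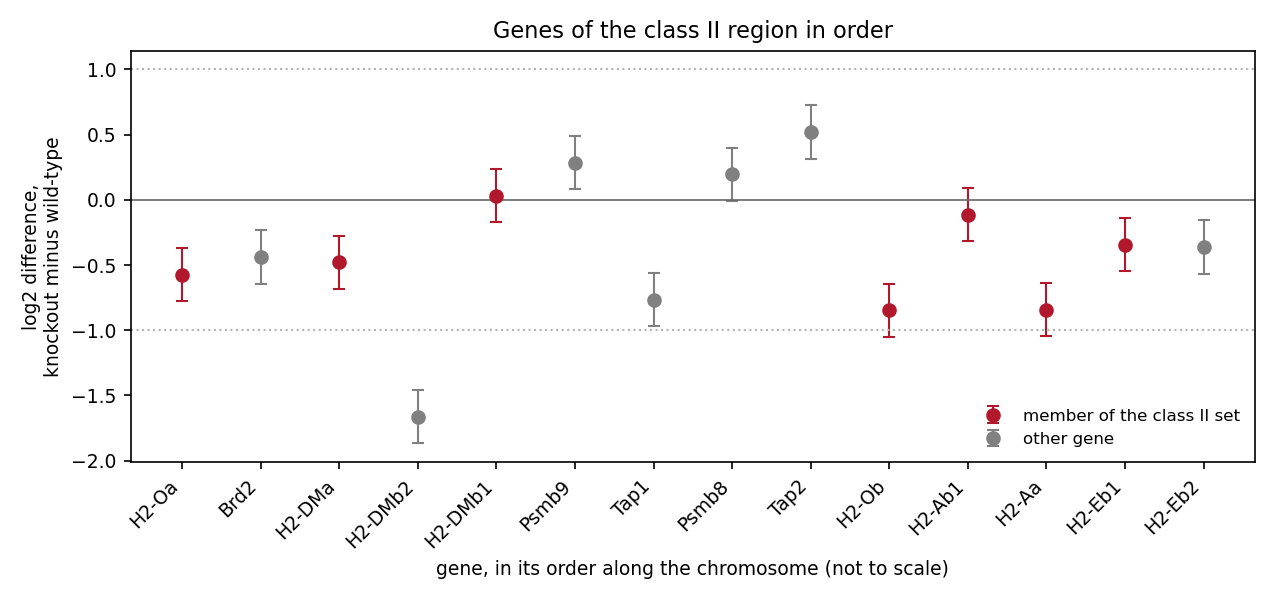
Points give the log2 difference, knockout minus wild-type (y axis), of the 14 genes from H2-Oa to H2-Eb2 in their order along the chromosome (x axis, not to scale), members in red and other genes in grey, with bars for the scanner error. H2-DMb2, at -1.66, is the one gene past 2-fold (dotted lines), and Psmb9, Psmb8 and Tap2 lie above 0.

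Other genes of the class II pathway did not all go the way of the 9. Of 7 factors that bind the X and Y boxes (the RFX, NF-Y and CREB1 genes), 6 were lower and 1 higher in knockout, none by 2-fold, with a median of -0.22 (4 lower and 3 higher with the array median as scale). Nfyb, a subunit of the Y box factor NF-Y, gave 334 on the knockout array and 520 on the wild-type array (-0.57 ± 0.20), and Rfx5, a subunit of the X box factor, gave 26.5 and 35.8 (-0.37 ± 0.31). The route from interferon gamma to Ciita had 7 members higher and 3 lower, none by 2-fold, and a median of 0.07. Ifng, the cytokine that induces Ciita in many cells, gave 142 on the knockout array and 108 on the wild-type array (0.46 ± 0.22), and Jak2, a kinase of its receptor, gave 6220 and 4920 (0.40 ± 0.20). With normexp, Ifng turned to -0.28 and Rfx5 stood at -1.12.

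Of 10 proteases and other processing genes, 7 were higher and 3 lower in knockout, where 50.4% of all genes were higher. Their median was 0.28, or 0.16 with the mean over probes, and 1 passed 2-fold. Ctsl, cathepsin L, a protease that trims the invariant chain in thymic epithelium and acts in macrophages, gave 5140 on the knockout array and 2550 on the wild-type array, 2.11-fold higher in knockout (1.08 ± 0.20). Of the ubiquitin ligases that remove class II molecules from the surface, Marchf8 gave 1540 on the knockout array and 805 on the wild-type array, 2.00-fold higher in knockout, a value just under 2-fold with quantile normalization (0.98), with loess (0.99) and in the authors' deposited table. Marchf1 gave a difference of -0.15 by its brightest probe and 0.37 by another, and its sign turned with the mean over probes (0.11), normexp (0.043) and the array median (0.027). Class I presentation genes had 6 of 10 higher and 4 lower, none by 2-fold, and a median of 0.12 (0.39 with normexp).

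Markers of cell types that usually carry class II molecules gave signal on both arrays and did not move together. The cultures began with sorted naive CD4 T cells. Their purity was not examined here, and the source of the signal was not tested. In bulk RNA, fewer cells of a type and less RNA per cell cannot be told apart. All 10 B cell markers were well above background on both arrays, 9 of them lower and 1 higher in knockout, with a median of -0.17 (5 and 5 with normexp, median -0.05, and 5 and 5 with the array median as scale, median 0.009). Their summed signal was 110700 on the knockout array and 132100 on the wild-type array. Ms4a1, which encodes CD20, gave 35900 and 50400 on the knockout and wild-type arrays (-0.42 ± 0.20, but -0.15 with normexp and -0.25 with the array median), and Blk, a B cell kinase, gave 35.4 and 98.7, 2.66-fold lower in knockout.

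Macrophage markers ran the other way. All 9 matched markers of 10 were higher in knockout and 4 of them passed 2-fold. The median was 0.90, and the summed signals were 22500 on the knockout array and 11710 on the wild-type array. With normexp, 5 were higher and 4 lower, with a median of 0.17. The brightest probe for Csf1r, the macrophage growth factor receptor, gave 11700 on the knockout array and 6580 on the wild-type array (0.90), while differences of -0.57 and -0.13 came from other Csf1r probes. Mrc1, the mannose receptor, gave 684 and 273, 2.62-fold higher in knockout (0.96 with normexp). Dendritic cell markers had 6 of 9 higher and 3 lower, a median of 0.36 (0.14 with normexp), and summed signals of 70340 and 77340 on the knockout and wild-type arrays. Most of each sum came from 1 Siglech probe. Another Siglech probe gave 2590 on the knockout array and 1900 on the wild-type array, a difference of 0.51. The brightest probe of Siglech, a gene of plasmacytoid dendritic cells, gave 67500 and 74900 (-0.08, but 0.14 with normexp and 0.09 with the array median). With the mean over probes the Siglech difference was 0.21. Cd209a, of conventional dendritic cells, gave 529 and 194, 2.85-fold higher in knockout (0.92 with normexp). Of the 3 costimulatory ligands, 2 were higher, Cd40 by 0.24 (0.44 with normexp) and Cd80 by 0.26, and Cd86 had a difference of -0.067 (0.083 with normexp).

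T cell markers were split, with 4 of 8 higher and 4 lower and a median of 0.02. With the array median as scale 6 were higher and 2 lower (median 0.196), and likewise with normexp (median 0.233). With quantile normalization 3 were higher and 5 lower. Lck, the coreceptor kinase, gave 28200 on the knockout array and 25100 on the wild-type array (0.23, or 0.51 with normexp), and Cd3e gave 1020 and 2330, 2.18-fold lower in knockout (-0.90 with normexp and -0.95 with the array median). Summed T cell marker signals were 71080 on the knockout array and 73550 on the wild-type array, but 127 and 126 times the 75th percentile of those arrays. The class II median of -0.57 had the same sign as the smaller B cell marker median of -0.17, except with the array median as scale. It had the opposite sign to those of the macrophage and dendritic cell markers. The T cell marker median was also negative with quantile normalization (-0.024), the mean over probes (-0.046) and the deposited table (-0.004). The part that any of these cells had in the class II values was not tested.

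**Figure D5:**
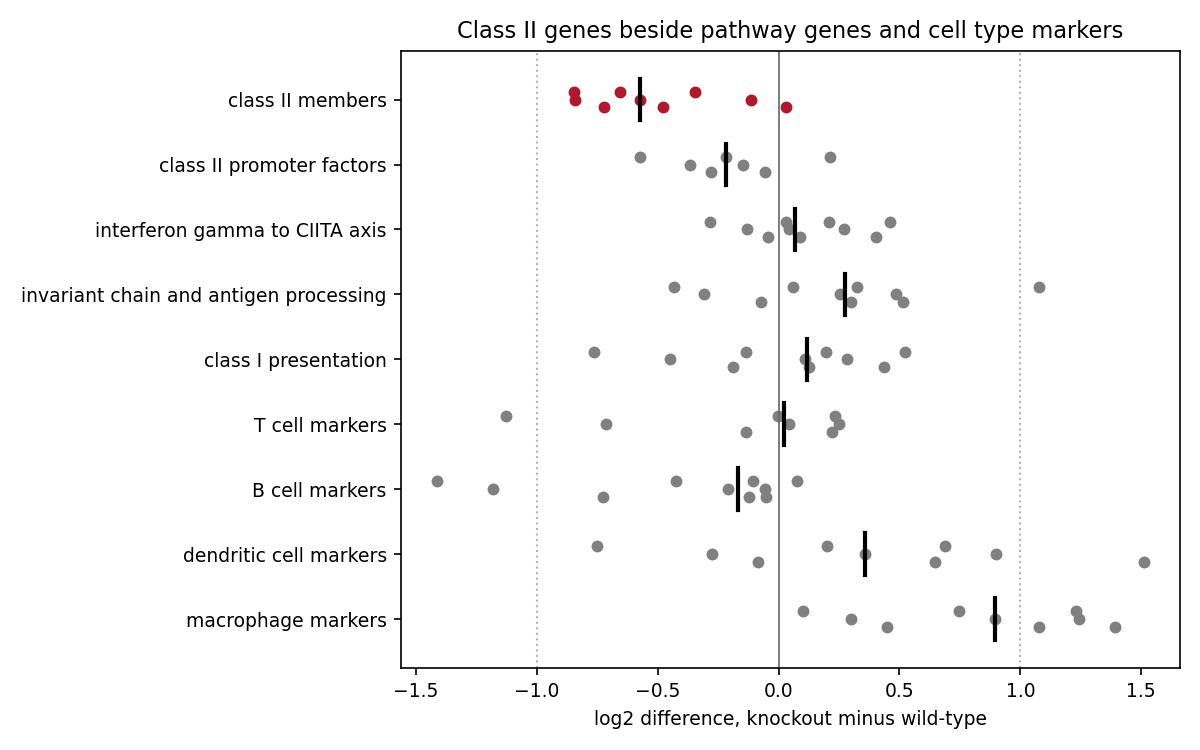
Points give the log2 difference, knockout minus wild-type (x axis), of single genes well above background on both arrays, in rows for the class II members (red), pathway lists and cell type markers (grey), with black bars at the medians and dotted lines at 2-fold. The median lies at -0.57 for the class II members, -0.17 for B cell markers (0.009 with the array median as scale) and 0.90 for macrophage markers.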

How the data were processed

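The 1-colour arrays were read by an Agilent scanner and its Feature Extraction software (version 11.0.1.1), per the submitters' processing notes. The deposited files give each spot's processed intensity, background-subtracted within the array, with the scanner's error and flags, per the file headers. The authors' deposited value table is on a log2 scale (median 5.36 in both columns, highest 46.7 in the knockout and 17.7 in the wild-type column), rising with the scanner signal. In the knockout column 12 values exceeded the highest log2 scanner signal of 17.75, so these are not plain log2 intensities, and none belonged to a listed gene. Its normalization and centring are not given in the sources used here. Its direction was taken from the sample of each column.

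Control spots were left out, as were gene spots with outlier flags (138 on the knockout and 228 on the wild-type array of 43020 gene spots). Spots of 1 probe were averaged, and each array's 75th percentile was subtracted on the log2 scale. Unversioned RefSeq accessions named 27220 of 39411 probes; the other 12191 were not used here. A gene's probe was the brightest one well above background on at least 1 array. Well above background were 65.3% of gene spots on the knockout and 57.1% on the wild-type array. Both arrays share a slide and a scan per the headers. The array number, 1 per genotype, limits the precision, and no p-value was computed.

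Members and lists were chosen with earlier results of these data known. The genes named are all 9 members, Sirt1, from each pathway list those at least 2-fold apart (at most 4, otherwise the 2 largest differences) and from each cell type list the brightest gene and the largest difference. Il9, Marchf1 and the neighbouring genes were named after values were seen, as was Mertk. Cd86 was also named outside these rules. Promoter motifs were counted without a test. Alternatives were the median as scale, quantile and loess normalization, normexp (offset 50, on median intensities, since no mean intensity was used here), the mean over probes, the deposited log2 values, other filters on dim probes, and thresholds of 1.5-fold and 3-fold. Functions were tested on simulated data with known folds. Python 3.11.15, pandas 2.3.3, R 4.3.3 and limma 3.58.1 were used.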

Additional observations from a re-analysis of the deposited data

How the results depend on the processing

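Over the 8 alternative settings the number of class II genes lower in knockout was between 7 and 9 of 9, none was 2-fold apart in either direction, and their median difference lay between -0.60 and -0.40. The count of genes lower in knockout was 4 at a threshold of 1.5-fold and 0 at 3-fold. At 1.5-fold it was 1 with normexp, against 26.05% of all genes, and 2 with the median as scale, against 7.40%. In the other 6 settings it was 4 or 5, against 9.46% to 28.85% of all genes. H2-Aa, H2-Eb1, Cd74, Ciita, H2-DMa, H2-Oa and H2-Ob were lower under each of the 8, while H2-Ab1 was higher in 2 and H2-DMb1 in 6. Scaling to the median moved the median of all genes to 0.18, and without a filter on dim probes it was -0.12. Genes at least 2-fold lower and higher numbered 471 and 514 with the 75th percentile, 1317 and 195 with normexp, 299 and 786 with the median as scale, and 4295 and 1098 without a filter. Over 90 named or listed genes, 58 of 720 values moved by more than their scanner error, 49 of them with normexp, and 1 of those 2-fold apart turned, Mertk, a macrophage receptor, to -0.45 with normexp; the cause was not tested. No paired analysis was possible because each genotype had 1 array. The scanner error of 0.20 limits what can be read from H2-Ab1 and H2-DMb1, and neither array can be left out.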
